A study of Mus musculus with 10 samples.

Results

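The Rab GTPase genes were examined in an ATAC-seq experiment on regulatory T cells (Tregs) with or without the lipid kinase Vps34. The members were chosen by annotation and not by a measured value: every protein-coding gene of the GRCm38 annotation whose symbol is Rab, a number and at most 1 letter, with every deposited peak in its body or within 10 kb. The rule found 59 genes, of which 57 had a peak, and 272 of the 97385 peaks of the table. Rab38 and Rab3d had none. A peak within 1 kb of a transcript start of the Rab gene was counted as a promoter peak (68 peaks of 52 genes), 33 peaks lay only at the promoter of a neighbouring gene, and 171 lay elsewhere, mostly in introns and flanks.

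Rabs are small GTPases that are anchored in membranes by a lipid tail and act as switches of vesicle traffic. Exchange factors (GEFs) load them with GTP, effector proteins then bind to them, and GTPase-activating proteins (GAPs) turn them off. Each organelle carries its own Rabs, with Rab5 on early endosomes, Rab7 on late endosomes and lysosomes, Rab11 and Rab4 on recycling endosomes, Rab1 between the endoplasmic reticulum (ER) and the Golgi, and Rab8, Rab10 and Rab27 on secretory carriers. Vps34, encoded by Pik3c3, makes a phosphoinositide on endosomes that many Rab5 effectors recognise, and Rab5 itself binds the Vps34 complex, so that both belong to the same endosomal pathway.

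All libraries came from sort-purified CD4+Foxp3-YFP+TCRb+ Tregs of 10-day-old mice. Vps34-deficient cells were from Foxp3CrePik3c3fl/fl mice, in which the Foxp3-driven Cre removes Pik3c3 in Foxp3-expressing cells. Controls carried the same Cre and either no floxed allele or 1 (written Foxp3CrePikc3c+/+ or Foxp3CrePikc3c+/fl in the labels), and which of these each control library came from was not given. There were 2 control and 4 Vps34-deficient libraries from spleen and 2 of each genotype from lung, by the sample labels and by the column names of the table. The methods of the study give the spleen group sizes the other way round, so every spleen value rests on the labels being right. The labels do not number the mice. Chromosome Y peaks summed to 7.03 to 21.4 CPM in 1 library of each group of 2 and in 2 of the 4 Vps34-deficient spleen libraries, lung control replicate 2 and Vps34-deficient lung replicate 1 among them, and to 56.9 to 67.6 CPM in the rest, so the libraries of each group of 2 were not repeats of 1 mouse. For Vps34-deficient spleen libraries of like chromosome Y level this is not known, and the p-values measure the spread between libraries.

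The libraries held between 9405823 and 22439699 counts in the peaks, and 91.5 to 96.5% of the counts per peak were even numbers. Between replicates of a group, the chi-square per degree of freedom on halved counts was 1.39 to 1.93, except for the 2 lung control libraries, which were least alike at 2.71. The counts, medians and most single peaks of the lung genotype comparison are therefore also given without lung control replicate 2. The promoter peak of Pik3c3 itself had 53.9 to 66.8 CPM (read counts relative to the scaled library total) in the 10 libraries and did not differ by genotype (log2 fold change 0.08 in edgeR, adjusted p = 0.492), and since a promoter need not lie in the deleted part it does not check the genotype labels. The 10 Treg and T cell marker genes all had a promoter peak, with a summed level of 310.5 to 418.5 CPM. Of 8 myeloid markers, Lyz2, Csf1r, Cebpe and Fcgr3 had no promoter peak, and the summed level of the other 4 genes was 50.4 and 56.7 CPM in control lung, 33.4 and 32.2 CPM in Vps34-deficient lung, 43.3 and 42.5 CPM in control spleen and 30.2 to 36.1 CPM in Vps34-deficient spleen. The part of this marker difference in the genotype results was not tested. Summed levels were 42.7 to 58.0 CPM for the 6 of 8 CD8 and NK markers with a promoter peak, 25.7 to 34.3 CPM for 3 of 8 lung epithelium markers and 29.4 to 38.9 CPM for 3 of 6 endothelium markers.

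Sequences are shown for 6 genes with peaks lower without Vps34, as 300 bases of the GRCm38 reference around the centre of the peak with the smallest average genotype p-value of each gene. For Rab8b, the gene with the most called peaks, this is not the peak that differed most in lung. The motif named on each line was chosen with the matches known. Capitals mark a match to the motif named on the line.
Rab10 intron peak (no AP-1 match), chr12:3291060-3291359, plus strand: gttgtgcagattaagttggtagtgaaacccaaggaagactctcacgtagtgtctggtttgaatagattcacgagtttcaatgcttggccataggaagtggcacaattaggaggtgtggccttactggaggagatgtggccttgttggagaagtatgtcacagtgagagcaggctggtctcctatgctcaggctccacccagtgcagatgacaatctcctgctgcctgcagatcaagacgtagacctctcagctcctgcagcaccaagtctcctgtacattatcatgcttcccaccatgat
Rab4a upstream peak (no AP-1 match), chr8:123797904-123798203, plus strand: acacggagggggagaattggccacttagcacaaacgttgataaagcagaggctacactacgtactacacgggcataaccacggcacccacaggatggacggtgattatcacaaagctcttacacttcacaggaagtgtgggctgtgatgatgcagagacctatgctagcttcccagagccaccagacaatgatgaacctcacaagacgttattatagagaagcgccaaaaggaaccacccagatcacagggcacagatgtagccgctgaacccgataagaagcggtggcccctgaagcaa
Rab8b intron peak (Runx), chr9:66883550-66883849, plus strand: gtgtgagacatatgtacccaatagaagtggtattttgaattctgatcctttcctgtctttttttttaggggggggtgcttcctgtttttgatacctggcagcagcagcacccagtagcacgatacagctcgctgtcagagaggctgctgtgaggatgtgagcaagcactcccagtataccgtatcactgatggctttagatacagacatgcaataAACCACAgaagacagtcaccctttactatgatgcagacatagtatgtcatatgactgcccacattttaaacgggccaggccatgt
Rab30 intron peak (AP-1), chr7:92811760-92812059, plus strand: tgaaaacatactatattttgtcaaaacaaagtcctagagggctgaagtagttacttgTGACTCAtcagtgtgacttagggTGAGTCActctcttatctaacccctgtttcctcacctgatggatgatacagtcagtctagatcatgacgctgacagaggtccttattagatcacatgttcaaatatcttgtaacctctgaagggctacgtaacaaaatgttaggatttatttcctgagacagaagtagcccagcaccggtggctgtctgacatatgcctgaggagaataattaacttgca
Rab27a second promoter peak (CRE), chr9:73045718-73046017, plus strand: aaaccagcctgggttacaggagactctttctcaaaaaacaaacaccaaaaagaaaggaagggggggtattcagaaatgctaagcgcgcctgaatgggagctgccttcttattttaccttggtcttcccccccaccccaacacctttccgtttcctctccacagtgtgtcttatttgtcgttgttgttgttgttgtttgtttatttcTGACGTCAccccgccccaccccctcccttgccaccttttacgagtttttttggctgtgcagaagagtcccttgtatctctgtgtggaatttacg
Rab20 intron peak (no AP-1 match), chr8:11464035-11464334, plus strand: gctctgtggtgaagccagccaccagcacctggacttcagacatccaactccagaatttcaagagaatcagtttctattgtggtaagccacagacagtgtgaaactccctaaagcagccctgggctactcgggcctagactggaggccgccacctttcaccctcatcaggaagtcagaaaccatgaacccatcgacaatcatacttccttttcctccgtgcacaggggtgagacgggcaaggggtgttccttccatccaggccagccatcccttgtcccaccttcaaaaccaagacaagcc
The Rab30 window held 2 AP-1 matches, at -89 and -66 bases from the peak centre. In the Rab8b window the single Runx match lay 70 bases after the centre, and in the Rab27a window a CRE match lay 61 bases after it.

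The level of the Rab promoters was examined first. The 68 Rab promoter peaks had a median of 33.7 CPM per kb over all libraries, against 25.0 CPM per kb over all 17414 tested promoter peaks. Taking only the highest promoter peak of each gene, the median of the 52 genes was 45.4 CPM per kb. The level ran from 3.15 CPM per kb at Rab27b, a secretory Rab of granules, to 179.1 CPM per kb at Rab1a, which acts in transport from the ER to the Golgi. By site of action the medians were 69.9 CPM per kb for the 7 early endosome Rabs (7.72 at Rab20 to 141.5 at Rab5b), 55.6 CPM per kb for 15 ER and Golgi Rabs, 48.8 CPM per kb for 3 Rabs linked to the cilium, 41.4 CPM per kb for 12 secretory Rabs, 40.8 CPM per kb for 7 late endosome and lysosome Rabs, and 33.3 CPM per kb for 7 recycling endosome Rabs. The ranges of these groups overlapped widely, since each of the groups with 7 or more genes held genes under 20 and over 80 CPM per kb.

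**Figure D1:**
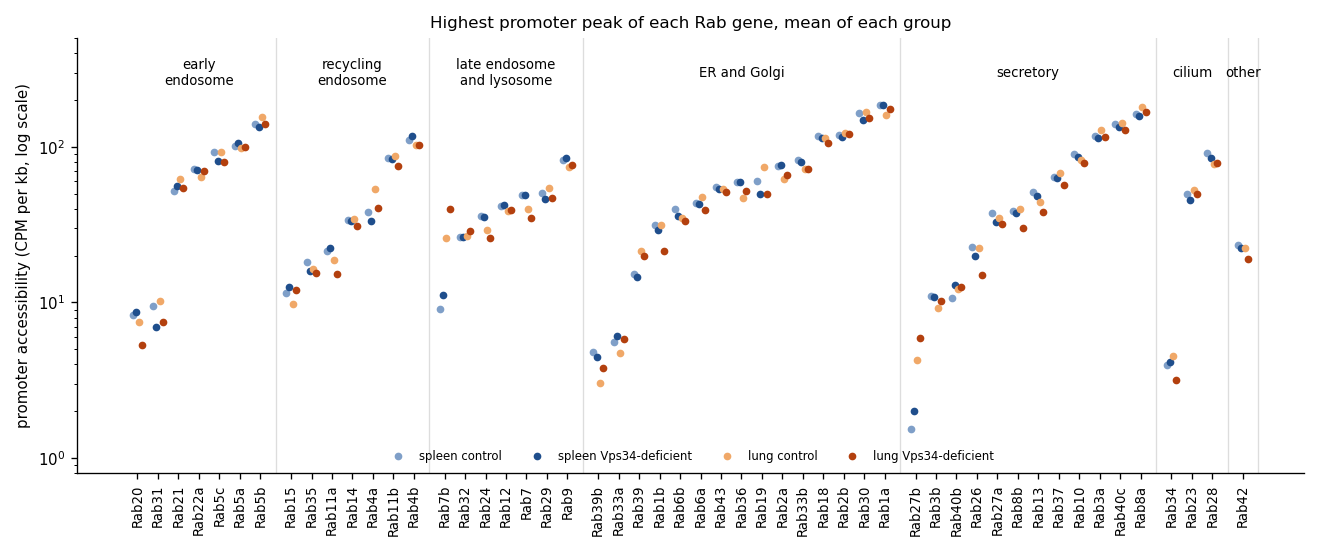
Accessibility of the highest promoter peak of each of the 52 Rab genes with one, in CPM per kb on a log axis, as the mean of each of the 4 groups (colours), ordered within sites of action. The points of most genes lie on top of each other, and those of Rab7b and Rab27b are higher in both lung groups.

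None of the promoters of the endosomal Rabs closest to Vps34 was called by genotype. Rab5a, whose protein recruits the Vps34 complex to early endosomes, had 140.2 and 137.0 CPM in control spleen, 135.6 to 161.8 CPM in Vps34-deficient spleen, 129.8 and 140.0 CPM in control lung and 144.9 and 127.6 CPM in Vps34-deficient lung. These groups overlapped in every comparison, and the log2 fold change on loss of Vps34, averaged over tissues, was 0.04 ± 0.06 (SE, adjusted p = 0.705). The other early endosome paralogs gave -0.10 ± 0.06 for Rab5b (adjusted p = 0.307) and -0.19 ± 0.10 for Rab5c (adjusted p = 0.238). At Rab7, the late endosome Rab, the genotype value was -0.08 ± 0.09 (adjusted p = 0.621).

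Among 10 promoters chosen for description whatever their result (Rab5a, Rab5b, Rab5c, Rab7, Rab1a, Rab4a, Rab11a, Rab8a, Rab27a and Rab14), the genotype averages lay between -0.29 and 0.05 and none had an adjusted p below 0.05. The tissue averages lay between -0.41 and 0.38, and 4 of the 10, 3 lower and 1 higher in lung, had an adjusted p below 0.05 without reaching the fold change of 0.5 required of a call. Of all promoter peaks, 12.2% were lower and 6.75% higher at this p. Rab7 had 38.4 and 36.3 CPM in control spleen and 35.6 to 39.3 CPM in Vps34-deficient spleen, above 27.1 and 33.6 CPM in control lung and 26.1 and 27.0 CPM in Vps34-deficient lung, a log2 fold change of -0.41 ± 0.09 (adjusted p = 0.000912). The groups of the 2 tissues did not overlap. Rab11a, which directs cargo back to the surface, showed -0.39 ± 0.11 (adjusted p = 0.0124) and Rab1a -0.15 ± 0.05 (adjusted p = 0.0324), while Rab4a, which returns cargo by the fast recycling route, was on the positive side at 0.38 ± 0.13 (adjusted p = 0.0256). Rab8a and Rab14 gave 0.12 ± 0.06 (adjusted p = 0.151) and -0.05 ± 0.08 (adjusted p = 0.704), and the main Rab27a promoter -0.06 ± 0.09 (adjusted p = 0.665).

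To see how often Rab peaks changed, each was tested in the edgeR quasi-likelihood fit over all 97109 peaks that passed the count filter, which all 272 Rab peaks did. Calls needed an adjusted p under 0.05 together with a log2 fold change beyond 0.5 in either direction, as in the methods of the study. Averaged over genotypes, 33 Rab peaks (12.1%) were higher and 8 (2.94%) lower in lung than in spleen, against 18.4% and 6.51% of all tested peaks. Averaged over tissues, 2 Rab peaks (0.735%) were higher and 13 (4.78%) lower without Vps34, against 3.52% and 4.06% of all tested peaks. Within spleen, 1 was higher and 2 lower without Vps34 (0.441% and 1.02% of all tested peaks), and within lung none was higher and 16 (5.88%) lower (1.22% and 3.74% of all tested peaks). Between lung and spleen, 22 were higher and 2 lower in controls (11.8% and 3.53% of all tested peaks) and 22 higher and 10 lower in Vps34-deficient cells (12.5% and 4.72% of all tested peaks). Of the 22 higher in lung among controls, 12 were also among the 22 among Vps34-deficient cells. The same overlap over all tested peaks is not given here. The interaction of tissue and genotype called none by edgeR (0.0% of all tested peaks), with 27 of the 272 (9.93%) at an unadjusted p below 0.05, against 7.27% of all tested peaks, and 1 called by DESeq2 (0.0247% of all tested peaks).

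**Figure D2:**
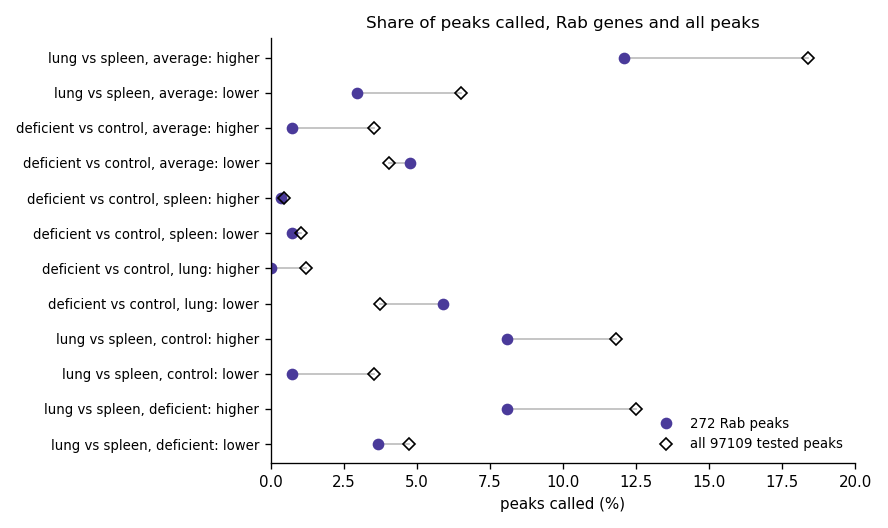
Percentage of the 272 Rab peaks (filled circles) and of all 97109 tested peaks (open diamonds) that were called in each comparison and direction. The Rab share is below that of all peaks for lung-higher peaks (12.1% against 18.4%) and above it for peaks lower in lung without Vps34 (5.88% against 3.74%, or 0.735% against 1.08% with lung control replicate 2 left out).

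The calls were then counted by class. Of the 68 Rab promoter peaks, 4 (5.88%) were higher and none lower in lung on average, against 4.9% and 2.73% of all promoter peaks, and none was higher and 1 (1.47%) lower without Vps34, against 0.844% and 1.41%. Of the 171 peaks away from promoters, 29 (17.0%) were higher and 7 (4.09%) lower in lung, against 21.3% and 7.33% of all peaks outside promoters, and 2 (1.17%) were higher and 11 (6.43%) lower without Vps34, against 4.1% and 4.63%. At an adjusted p below 0.05 alone, 9 Rab promoter peaks (13.2%) were lower and 6 (8.82%) higher in lung, against 12.2% and 6.75% of all promoter peaks, and 3 (4.41%) were lower without Vps34, against 2.91%.

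In all, 62 Rab peaks (22.8%) of 31 genes were called in at least 1 comparison, against 32.9% of all tested peaks. The numbers of called peaks per gene were highest for Rab8b (8 of 16 peaks) and Rab4a (4 of 9 peaks), followed by 9 genes with 3 each, namely Rab10, Rab15, Rab20, Rab27a, Rab27b, Rab30, Rab31, Rab6b and Rab7b. By site of action, called lower without Vps34 on average (4.06% of all tested peaks) were 4 of 38 peaks of recycling endosome Rabs (10.5%), 6 of 89 of secretory Rabs (6.74%), 1 of 11 of cilium Rabs, 1 of 42 of early endosome Rabs (2.38%), 1 of 63 of ER and Golgi Rabs (1.59%) and none of 24 of late endosome and lysosome Rabs. With these sizes the groups were compared only by counts.

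The intron peak of Rab10 at chr12:3291048-3291370 had the smallest genotype p-value. Rab10 is a secretory Rab that delivers vesicles to the plasma membrane, and the peak lies 18599 bp from its start. It held 3.23 and 3.43 CPM in control spleen and 0.727 to 1.13 CPM in the 4 libraries of Vps34-deficient spleen, and 3.71 and 7.36 CPM in control lung and 0.832 and 1.29 CPM in Vps34-deficient lung. Every Vps34-deficient library lay below every control library. The log2 fold change was -2.03 ± 0.28 on average (adjusted p = 2.66e-05), -1.78 ± 0.34 in spleen (adjusted p = 0.00651) and -2.42 ± 0.44 in lung (adjusted p = 0.00171), and it was the only Rab peak called in both tissues. With lung control replicate 2 left out, the value in lung was -1.79 (adjusted p = 0.0906), and without Vps34-deficient lung replicate 1 it was -2.03 (adjusted p = 0.0552). The spleen call was lost without spleen control replicate 1 or 2 (adjusted p = 0.0745 and 0.0754), while the average was called under every alternative run. Of the 323 bp of this peak, 59.8% are written in lower case in the reference sequence, which marks repeats and low-complexity sequence, where reads can be hard to place. A second Rab10 intron peak (chr12:3280126-3280482) was lower on average by -0.88 ± 0.24 (adjusted p = 0.0220, lost without spleen control replicate 1, lung control replicate 2 or Vps34-deficient lung replicate 2).

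Rab4a had 3 peaks lower without Vps34, and its promoters were not among them. The upstream peak at chr8:123797815-123798291, 7694 bp before the start, held 11.03 and 14.0 CPM in control spleen, 4.69 to 8.95 CPM in Vps34-deficient spleen, 13.1 and 30.2 CPM in control lung and 10.2 and 7.72 CPM in Vps34-deficient lung. Within each tissue the genotypes did not overlap, with a log2 fold change of -1.01 ± 0.20 on average (adjusted p = 0.00184). The value was -0.80 ± 0.25 in spleen (adjusted p = 0.111) and -1.29 ± 0.30 in lung (adjusted p = 0.0127), and leaving out lung control replicate 2 brought the value in lung to -0.51 (adjusted p = 0.487). The lung call was also lost without Vps34-deficient lung replicate 1 or 2 (adjusted p = 0.0659 and 0.144) and in DESeq2 (-1.24, adjusted p = 0.0977). Its neighbour at chr8:123796717-123797095 gave -1.25 ± 0.27 on average (adjusted p = 0.00472) and -1.52 ± 0.43 in lung (adjusted p = 0.0388, or 0.472 without lung control replicate 2), a lung call that was lost without any 1 of the spleen controls or the Vps34-deficient lung libraries as well. The third, 39096 bp downstream of the start at chr8:123845164-123845468, gave -1.06 ± 0.29 on average (adjusted p = 0.0193, lost without spleen control replicate 2 or lung control replicate 2). At the highest promoter peak of the gene the genotype average was -0.29 ± 0.12 (adjusted p = 0.156). The remaining called peak, the promoter peak at chr8:123805663-123806140, was lower in lung than in spleen among Vps34-deficient cells by -0.54 ± 0.19 (adjusted p = 0.0480). This call was lost without any 1 of 8 libraries, the exceptions being Vps34-deficient spleen replicate 1 and lung control replicate 2.

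Rab27a, which docks lytic and other secretory granules, had the single Rab promoter peak called by genotype in the average over tissues. Within lung alone, promoter peaks of Rab19 and Rab43 were called and are described further on. This peak, chr9:73045731-73046003, lies in an intron 874 bp from the nearest start and held 6.85 and 5.49 CPM in control spleen, 2.27 to 3.65 CPM in Vps34-deficient spleen, 8.07 and 6.99 CPM in control lung and 4.82 and 4.72 CPM in Vps34-deficient lung. Every Vps34-deficient library lay below every control library. The log2 fold change was -0.86 ± 0.18 on average (adjusted p = 0.00391) and -1.01 ± 0.23 in spleen (adjusted p = 0.0257), where the call was lost without spleen control replicate 1 or 2 or Vps34-deficient spleen replicate 2 or 4 (adjusted p = 0.0553 to 0.388). In lung it was -0.65 ± 0.28 and was not called (adjusted p = 0.195). The main promoter peak next to it, at 27.9 to 38.6 CPM, gave a genotype average of -0.17 ± 0.09 (adjusted p = 0.242). Of the called peak, 53.1% is written in lower case in the reference.

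**Figure D3:**
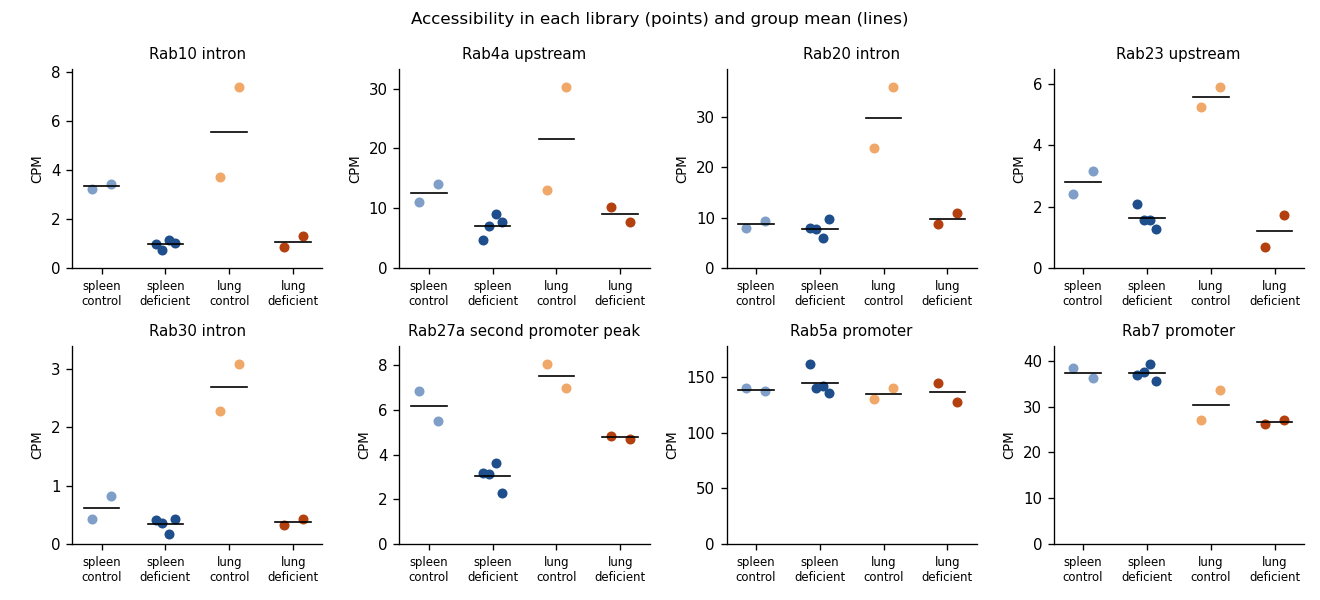
CPM in each library (points) and the mean of each group (lines) for 6 Rab peaks called lower without Vps34 on average and, for comparison, the Rab5a and Rab7 promoters, each axis starting at 0. The Rab10 and Rab27a panels show every Vps34-deficient library below every control, and the Rab20 panel shows both lung controls alone above all other libraries.

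Within lung, 16 peaks were lower without Vps34 (against 2 within spleen). They belonged to 11 genes. They were called from the lung libraries, where all 16 had both Vps34-deficient libraries below both controls (23.1% of all tested peaks did). At 15 the spleen value was negative too. In 9 of them all 4 Vps34-deficient spleen libraries lay below both spleen controls (10.8% of all tested peaks did), and 10 of the 16 were also among the 13 called on average. The tissue comparison in controls uses the same 2 lung control libraries, and it was called higher in lung at 5 of the 16 (11.8% of all tested peaks). In the edgeR test of the difference between tissues none of these peaks was called. Their lowest adjusted interaction p was 0.201, and 7 of the 16 were under 0.05 before adjustment. Lung control replicate 2 was the higher of the 2 controls at 14 of the 16 peaks. Without it 2 calls remained, the intron peak of Rab20 and the upstream peak of Rab23, while among the others the log2 fold change ran from -0.34 (Rab8b) to -2.65 (Rab15) and stayed near its value for Rab15, Rab39 and Rab30, and without Vps34-deficient lung replicate 1 or 2 the fit made 6 or 5 calls (2.21% and 1.84%, against 1.41% and 1.9% of all tested peaks). Without spleen control replicate 2 it made 8 calls (2.94%, against 2.64%). At 19 Rab peaks (6.99%, against 6.38% of all tested peaks) every Vps34-deficient library lay below every control library of the same tissue in both tissues, and at 4 (1.47%, against 6.02%) every one lay above.

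Over all 272 peaks the lung values lay toward the lower side, with a median that came close to 0 without lung control replicate 2. With all libraries, both Vps34-deficient lung libraries lay below both lung controls at 92 Rab peaks (33.8%, against 23.1% of all tested peaks) and above both at 34 (12.5%, against 22.7%). The median log2 fold change in lung was -0.13, against 0.02 over all tested peaks, and by class it was -0.12 at Rab promoters against -0.06 at all promoters, and -0.12 at the Rab peaks away from promoters against 0.07 at all such peaks. In spleen the median was -0.03, against 0.05 over all tested peaks. With lung control replicate 2 left out, the Rab median in lung was -0.01, against 0.05 over all tested peaks. Both Vps34-deficient lung libraries then lay below the remaining control at 119 Rab peaks (43.8%, against 35.9%) and above it at 85 (31.2%, against 34.9%), and the 2 peaks still called lower were 0.735% of the Rab peaks, against 1.08% of all tested peaks. With lung control replicate 1 left out, the Rab median was -0.14, against 0.14 over all tested peaks. Secretory Rabs had a lung median of -0.29 over 89 peaks, with 42 lower in both libraries, of which 13 belonged to Rab8b. For the other 73 secretory peaks the median was -0.22 with 29 lower in both libraries, close to the -0.21 of the 38 peaks of recycling endosome Rabs. Without lung control replicate 2 these 3 medians were -0.11, -0.05 and -0.06. Early endosome Rabs had a lung median of 0.02 over 42 peaks, late endosome and lysosome Rabs -0.01 over 24 and ER and Golgi Rabs 0.02 over 63. The lowest group median was that of the cilium Rabs, -0.35 over 11 peaks, and it was -0.30 without lung control replicate 2.

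**Figure D4:**
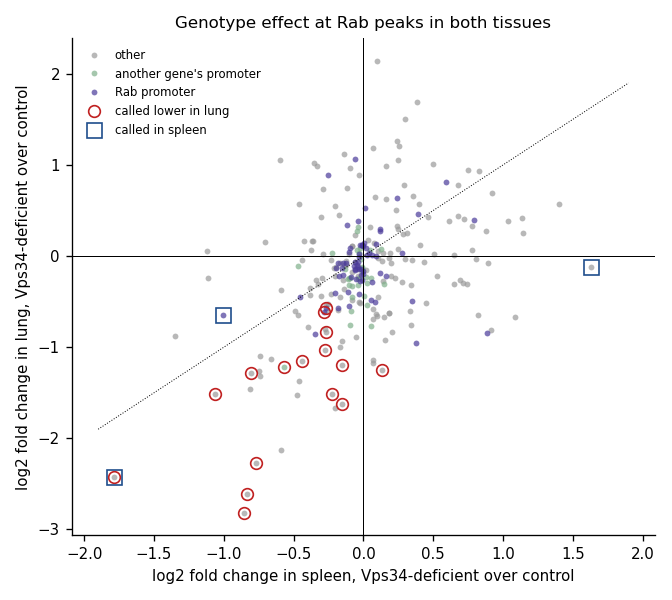
Log2 fold change of Vps34-deficient over control in spleen (horizontal) and in lung (vertical) at the Rab peaks, coloured by class, with the line of equal values dotted and 2 peaks at near-zero counts outside the vertical range left out. The 16 peaks called in lung (red circles) lie below the horizontal 0 line, 15 of them also left of 0, and 1 of them (Rab10) was called in spleen as well (blue squares).

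Rab20, an early endosome Rab found on phagosomes, held the lung genotype peak with the smallest p-value. The intron peak at chr8:11463819-11464549 had 7.97 and 9.34 CPM in control spleen, 5.99 to 9.79 CPM in Vps34-deficient spleen, 23.8 and 35.9 CPM in control lung and 8.65 and 10.9 CPM in Vps34-deficient lung. The lung controls alone stood high, and the Vps34-deficient lung libraries lay within or just above the spleen range. The log2 fold change was -1.62 ± 0.24 for genotype in lung (adjusted p = 0.000187), -0.15 ± 0.21 in spleen (adjusted p = 0.818) and 1.80 ± 0.23 for lung against spleen in controls (adjusted p = 5.05e-05). The interaction was -1.47 ± 0.32 (adjusted p = 0.221, not called). With lung control replicate 2 left out, the value in lung was -1.26 (adjusted p = 0.0112). A narrow peak of 210 bp downstream of Rab20 (chr8:11444110-11444319) was the single Rab peak called higher in spleen without Vps34, with 0.690 and 0.549 CPM in the controls and 1.39 to 2.48 CPM in the Vps34-deficient libraries (1.63 ± 0.41, adjusted p = 0.0440). That call was lost when any 1 of spleen control replicates 1 and 2, Vps34-deficient spleen replicates 1, 2 and 4 or Vps34-deficient lung replicates 1 and 2 was left out.

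Rab8b, a close paralog of Rab8a that moves vesicles from the Golgi to the cell surface, carried the largest number of called peaks of the Rab genes, 8 of its 16. Its 16 peaks ran from -6357 bp from the start (peak centre) to the neighbouring Aph1c promoter beyond its far end, with 13 in introns, and 5 of them were lower in lung without Vps34 while 6 were higher in lung than in spleen among controls. The strongest by genotype within lung, chr9:66897789-66898258, held 11.6 and 12.9 CPM in control spleen, 11.03 to 15.8 CPM in Vps34-deficient spleen, 22.5 and 34.6 CPM in control lung and 13.5 and 10.5 CPM in Vps34-deficient lung. The lung controls alone stood high, and the lung genotype and control tissue comparisons share them, with -1.25 ± 0.21 for genotype in lung (adjusted p = 0.000906), 0.13 ± 0.18 in spleen (adjusted p = 0.821) and 1.23 ± 0.21 for tissue in controls (adjusted p = 0.000322). The interaction was -1.38 ± 0.28 with an adjusted p of 0.201. The peak at chr9:66903376-66903782 was called between tissues in both genotypes, with 1.98 and 3.16 CPM in control spleen, 1.99 to 3.64 CPM in Vps34-deficient spleen, 7.42 and 11.8 CPM in control lung and 5.32 and 5.58 CPM in Vps34-deficient lung (1.94 ± 0.33 in controls, adjusted p = 0.000293, and 0.90 ± 0.29 without Vps34, adjusted p = 0.0292). The second call was lost without Vps34-deficient spleen replicate 3 or 4 or Vps34-deficient lung replicate 1 or 2 (adjusted p = 0.0746 to 0.110).

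At the other 4 Rab8b peaks lower in lung, the log2 fold changes were -1.19 ± 0.25 (chr9:66873483-66874598, adjusted p = 0.00541), -1.15 ± 0.31 (chr9:66887998-66888306, adjusted p = 0.0300), -1.03 ± 0.27 (chr9:66915479-66915743, adjusted p = 0.0262) and -0.83 ± 0.20 (chr9:66883454-66883944, adjusted p = 0.0137). None of the 5 calls held without lung control replicate 2, where the values lay between -0.34 and -0.87. The calls at these other 4 peaks were also lost in edgeR with lung libraries alone (adjusted p = 0.0567 to 0.131). Without Vps34-deficient lung replicate 2 they were lost as well, at -0.69 to -1.05. With the replicate block, the calls at chr9:66887998-66888306 and chr9:66915479-66915743 were lost. Of the 6 peaks higher in lung among controls, 4 were not called without spleen control replicate 1 or without lung control replicate 2. Over all 16 peaks, in comparisons that share the lung controls, the median was -0.73 for genotype in lung (-0.29 without lung control replicate 2), 0.00 for genotype in spleen and 0.75 for tissue in controls. Both Vps34-deficient lung libraries lay below both lung controls at 13 of the 16 (23.1% of all tested peaks did). Both lung controls lay above both spleen controls at 11 (31.7% of all tested peaks did). Lung control replicate 2 was the highest of all 10 libraries at 13 of the 16 peaks, the promoter included. The share of all tested peaks at which it was highest is not given here. The Rab8b promoter itself, at 18.1 to 28.0 CPM, gave -0.41 ± 0.18 in lung (adjusted p = 0.184) and 0.07 ± 0.17 between tissues in controls (adjusted p = 0.846).

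**Figure D5:**
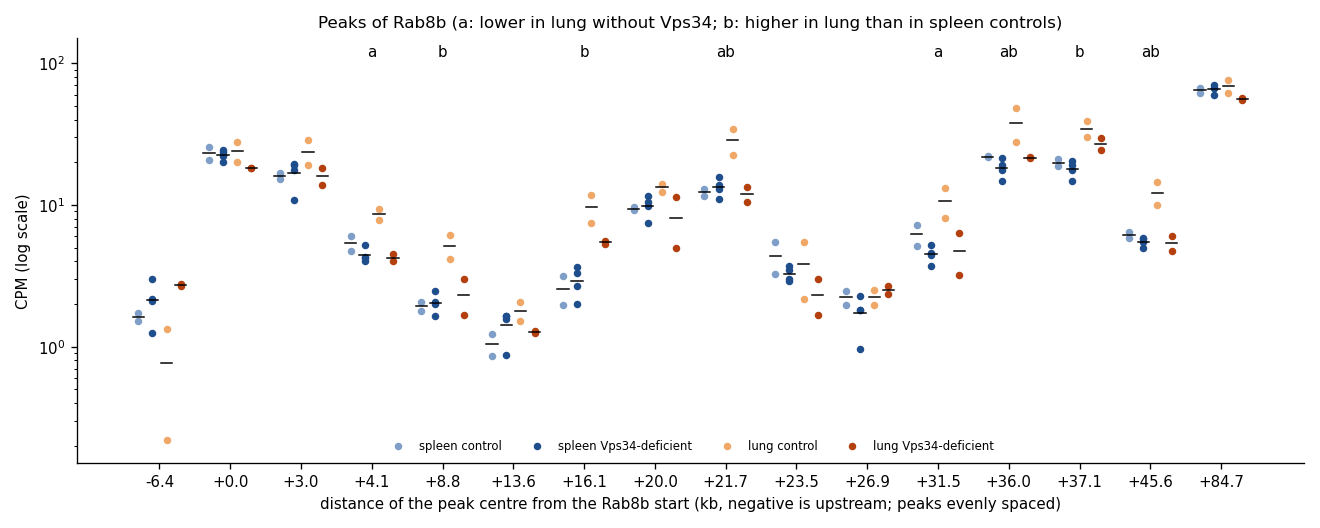
CPM on a log axis in each library (points) and the group mean (lines) at the 16 Rab8b peaks, ordered by distance of the peak centre from the gene start. Letters mark the 5 peaks lower in lung without Vps34 (a) and the 6 higher in lung than in spleen among controls (b), and at peaks with both letters the lung controls stand above the other groups.

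The remaining peaks lower in lung are named here after their values were seen. The upstream peak of Rab23 (chr1:33709673-33710007), a Rab of ciliary signalling, held 2.41 and 3.16 CPM in control spleen, 1.28 to 2.07 CPM in Vps34-deficient spleen, 5.24 and 5.89 CPM in control lung and 0.665 and 1.72 CPM in Vps34-deficient lung. Genotypes did not overlap in either tissue, with -1.35 ± 0.30 on average (adjusted p = 0.00581) and -2.27 ± 0.44 in lung (adjusted p = 0.00254). It was -2.15 without lung control replicate 2 (adjusted p = 0.0317) and -1.61 without Vps34-deficient lung replicate 1 (adjusted p = 0.0818). The Rab30 intron peak with the AP-1 matches (chr7:92811771-92812048), at a Golgi Rab, held 0.174 to 0.824 CPM in all spleen libraries and 0.333 and 0.429 CPM in Vps34-deficient lung, and 2.29 and 3.09 CPM in control lung. Only the lung controls were above 1 CPM, and the lung value was -2.82 ± 0.71 (adjusted p = 0.0204). Without lung control replicate 2 it was -2.55 (adjusted p = 0.164), and the call was also lost without Vps34-deficient lung replicate 1 or 2 (-2.55 and -2.92). Peaks of Rab15 (-2.61 ± 0.71), Rab39 (-1.51 ± 0.42) and the intron of Rab26 within 1 kb of the Traf7 start (-1.21 ± 0.32) also fell in lung. Among promoters, Rab19 fell from 74.3 and 88.2 CPM to 53.2 and 56.6 CPM (-0.57 ± 0.11, adjusted p = 0.00388) and a Rab43 promoter peak from 22.0 and 26.7 CPM to 15.5 and 16.4 CPM (-0.62 ± 0.17, adjusted p = 0.0314). These 5 peaks were not called without lung control replicate 2, where the values ran from -0.41 at Rab19 to -2.65 at Rab15, nor without Vps34-deficient lung replicate 1, and of them Rab19 alone was called without Vps34-deficient lung replicate 2.

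The 3 smallest p-values for higher in lung belonged to an intron peak of Rab22a, an early endosome Rab (chr2:173670497-173670708, 212 bp), a peak 144 bp from the start of Rab7b, a Rab of lysosomes and of traffic from endosomes to the Golgi (chr1:131688341-131688551, 211 bp), and a peak of Rab9b on chromosome X (chrX:136867530-136867739, 210 bp). The Rab22a peak held 7.58 to 16.3 CPM over the 6 spleen libraries, 29.5 and 18.7 CPM in control lung and 32.4 and 32.2 CPM in Vps34-deficient lung, so the tissues did not overlap (1.36 ± 0.15, adjusted p = 2.55e-07). It was also 1 of the 2 Rab peaks called higher without Vps34 on average (0.57 ± 0.16, adjusted p = 0.0246). The other was the Rab27b intron peak chr18:69988958-69989167 of 210 bp (0.84 ± 0.24, adjusted p = 0.0247), which was higher in lung among Vps34-deficient cells by 1.65 ± 0.29 (adjusted p = 0.000267), and neither call held without lung control replicate 2, spleen control replicate 1 or Vps34-deficient spleen replicate 1. The Rab22a call was also lost without Vps34-deficient spleen replicate 4 and the Rab27b call without Vps34-deficient lung replicate 1. Rab7b held 1.51 to 3.59 CPM in spleen and 4.56 to 8.79 CPM in lung (1.69 ± 0.22, adjusted p = 2.81e-06), and Rab9b 2.42 to 6.76 CPM and 10.0 to 14.0 CPM (1.497 ± 0.21, adjusted p = 6.74e-06).

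Of the 50 Rab peaks of 220 bp or less, 22 (44.0%) were higher in lung, against 57.9% of all such peaks, and of the 222 wider Rab peaks 11 (4.95%) were, against 6.35%. The median level was 1.12 CPM for the narrow and 5.65 CPM for the wider Rab peaks. This width limit was chosen after the data were seen, and its part in the tissue result was not tested. Both Rab peaks higher without Vps34 on average and the one higher in spleen were narrow, whereas all 13 lower on average and all 16 lower in lung were wider. Over all tested peaks, 94.3% of those lower on average and 95.9% of those lower in lung were over 220 bp too.

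Besides Rab7b, promoter peaks of Rab27b, Rab9 and Rab30 were higher in lung. The Rab27b promoter held 0.426 to 1.52 CPM in spleen and 1.91 to 4.50 CPM in lung (1.49 ± 0.33, adjusted p = 0.00122). At Rab9, which returns receptors from late endosomes to the Golgi, a second promoter peak held 2.61 to 4.49 CPM in spleen and 4.80 to 6.43 CPM in lung (0.62 ± 0.20, adjusted p = 0.0192), and the call was lost without spleen control replicate 1, Vps34-deficient spleen replicate 3 or Vps34-deficient lung replicate 1 or 2. The Rab30 peak of 186 bp at an inner start had 2 to 8 counts in each spleen library and 6 to 22 counts in each lung library (2.29 ± 0.56, adjusted p = 0.00292), so that it stood near the lower end of what the depth can show.

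Peaks higher in spleen were fewer. The smallest p-value was at a 198 bp intron peak of Rab31, which acts between the Golgi and endosomes (chr17:65663396-65663593). It had 22 and 26 counts in the spleen controls and 6, 16, 20 and 22 in Vps34-deficient spleen, 0 in both lung controls and 2 and 0 in Vps34-deficient lung. Against the floor of 3 counts over the lung control group, the spleen controls were at least 10.2-fold higher. The upstream peak of Rab35, which directs fast recycling (chr5:115626570-115626768), had 16 to 26 counts in each spleen library, 6 and 0 in the lung controls and 0 in both Vps34-deficient lung libraries, so that Vps34-deficient spleen was at least 7.60-fold higher than a floor of 3 counts over the Vps34-deficient lung group. The Rab35 call among Vps34-deficient cells was lost without Vps34-deficient lung replicate 1 (adjusted p = 0.0587). Rab44, a large Rab of immune cell granules, had an intron peak (chr17:29143328-29143730) with 1.79 to 3.05 CPM in spleen and 0.436 to 1.33 CPM in lung (-1.54 ± 0.33, adjusted p = 0.000945). A peak downstream of Rab3c (chr13:110048750-110049780) held 12.6 to 20.1 CPM in spleen and 6.98 to 12.7 CPM in lung, which overlap at their edge (-0.70 ± 0.15, adjusted p = 0.000959), and an upstream peak of Rab33b was lower in lung among controls (-1.998 ± 0.68, adjusted p = 0.0452) in a call that was lost without either control of either tissue and in DESeq2 (adjusted p = 0.0514). The Rab11a promoter was called lower in lung among Vps34-deficient cells, with 18.8 and 14.2 CPM against 21.9 to 27.0 CPM in spleen (-0.54 ± 0.15, adjusted p = 0.0126), but not without Vps34-deficient lung replicate 2 (-0.30, adjusted p = 0.290). Without spleen control replicate 2, Vps34-deficient spleen replicate 4 or lung control replicate 1 its fold change fell just short of 0.5.

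The motif content of the Rab peaks was counted in windows of 300 bp at the peak centres, on both strands. Sp/KLF (GGGCGGG) was found in 39.7% of Rab promoter peaks and in 39.3% of all promoter peaks, and ETS (CCGGAAG) in 10.3% and 12.6%. TCF/LEF was found in 8.82% (6 of 68) and 3.37%, AP-1 in 2.94% (2 of 68) and 5.57%, and E-box in 4.41% and 8.24%. Runx, CRE and NF-kB were found in 4.41%, 1.47% and 1.47% of Rab promoter peaks and in 4.54%, 2.0% and 1.31% of all promoter peaks. Away from promoters, AP-1 (TGANTCA) was found in 12.3% of Rab peaks and 14.6% of all peaks, and Runx (TGTGGTT) in 9.36% and 12.1%. Of the 15 Rab peaks away from promoters that were lower without Vps34 in either tissue or on average, 1 (6.67%), the Rab30 intron peak, held an AP-1 match. The other motifs, CRE (TGACGTCA), E-box (CACGTG), NF-kB (GGANTTTCC) and TCF/LEF (CTTTGAA), were found in 0.0%, 2.34%, 1.75% and 5.85% of the Rab peaks away from promoters, and in 0.593%, 5.62%, 1.72% and 8.66% of all such peaks. None of the motifs searched contains another, and a match is a run of letters and not a bound site. More than 50% of the peak was lower-case reference sequence at 3 of the 13 Rab peaks lower without Vps34 on average (Rab10, Rab23 and Rab27a), at 6.99% of all Rab peaks and at 5.62% of all peaks.

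The genes that act on Rabs were counted in the same way from lists written with earlier results of these data known. The shares to read them against are those of all tested peaks, 18.4% higher and 6.51% lower in lung, and 3.52% higher and 4.06% lower without Vps34. Peaks of 32 GEF genes numbered 282, of which 41 (14.5%) were higher and 16 (5.67%) lower in lung, and 7 (2.48%) higher and 13 (4.61%) lower without Vps34. Peaks of 35 GAP genes numbered 354, of which 36 (10.2%) were higher and 40 (11.3%) lower in lung, and 9 (2.54%) higher and 22 (6.21%) lower without Vps34. Of 273 peaks of 41 effector genes, 35 (12.8%) were higher and 15 (5.49%) lower in lung, and 7 (2.56%) higher and 17 (6.23%) lower without Vps34. Of 36 peaks of the 8 genes for Rab prenylation and extraction from membranes, 5 were higher and 2 lower in lung and 1 was lower without Vps34.

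Among these regulators, the smallest tissue p-value belonged to a peak of Tbc1d4, a GAP of Rab8 and Rab10. This intron peak chr14:101452909-101453476 held 36.1 ± 0.042 CPM (SD, n = 2) in the spleen controls and 17.2 ± 0.367 CPM (SD, n = 2) in the lung controls (-1.08 ± 0.09, adjusted p = 1.16e-08 in edgeR). A second Tbc1d4 intron peak gave -1.76 ± 0.18 and a peak of Rims2, an effector of Rab3, -1.06 ± 0.14. Higher in lung were peaks of Rph3a, another Rab3 effector (1.27 ± 0.12), and of the GEF genes Dennd4a (1.14 ± 0.11) and Dennd2d (1.41 ± 0.14). The Rph3a and Dennd2d peaks were of 220 bp or less, a class in which 57.9% of all tested peaks were called higher in lung. By genotype, 2 of the 7 Hps4 peaks are named, which fell without Vps34 (-1.42 ± 0.18 and -2.11 ± 0.29, adjusted p = 9.03e-06 and 2.30e-05 in edgeR). Hps4 is part of the exchange factor for Rab32 and Rab38. An intron peak of the GAP Tbc1d16, which acts on Rab4, fell in spleen from 3.19 ± 0.544 CPM (SD, n = 2) in controls to 0.542 ± 0.271 CPM (SD, n = 4), and in lung from 4.65 ± 1.33 CPM (SD, n = 2) in controls to 1.29 ± 0.300 CPM (SD, n = 2) (-2.25 ± 0.31 on average, adjusted p = 2.78e-05 in edgeR). Peaks of Mical3 (0.82 ± 0.16), Tbc1d15 (1.05 ± 0.21) and Rph3a (0.60 ± 0.12) were higher without Vps34. The Rph3a peak is the narrow one above, and 8.79% of all narrow peaks were called higher without Vps34. Tbc1d15 is a GAP of Rab7.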

How the data were processed

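ATAC-seq reads of 10 Treg libraries had been reduced by the authors to 1 deposited table of whole-number counts per peak, which is the unit used here. The labels name cutadapt 1.9, Picard 1.65, SAMtools, MACS2 2.1.0.20150603 and bedtools, and GRCm38 (mm10). According to the methods, peaks were called in each sample from nucleosome-free reads and merged before counting. A peak's width and its entry in the table thus depend on the libraries in which it was called. The methods of the study name mm9 instead for these reads. Of 21951 gene starts of the GRCm38 annotation, 51.3% lay in a peak, against 2.74% after a shift of 20000 bp, so GRCm38 was used.

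Here 97109 of 97385 peaks passed filterByExpr and were scaled by TMM and tested with the quasi-likelihood test of edgeR 4.0.16 in R 4.3.3, in a model of 4 groups and, for averages, of tissue and genotype. P-values were adjusted by Benjamini-Hochberg over all tested peaks, and the fits were tested on simulated data. CPM are TMM-scaled. The members and lists were chosen with earlier results of these data known. Peaks named were the called Rab peaks with the 3 smallest p-values per direction in the average, within-tissue and within-genotype comparisons, called promoter peaks in the averages, the highest promoter peak of 10 set genes and, as counts, the 5 genes with most calls. From the regulator lists they were the 3 with the smallest p-values per average comparison and direction. Other peaks were named after their values were seen. Alternatives were other scalings, no filter, halved counts, DESeq2 1.42.0, a replicate block, a chromosome Y covariate, each tissue alone and leaving out each library. Counts are not independent molecules, and floors cover counting error only. The result of 1 marker list is not reported here.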

Additional observations from a re-analysis of the deposited data

Results flagged for a closer look

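At the upstream peak of Rab35 (chr5:115626570-115626768), Vps34-deficient spleen replicate 3 had 0.8685 CPM and stood apart below the other 3 libraries of its group, which lay between 1.09 and 1.14 CPM. It was the single such case at the 36 named peaks, and chance gives such a case in about 1 in 20 groups.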

How the results depend on the processing

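Counts of called Rab peaks changed as follows. With the replicate block, 5 were lower in lung on average (8 without the block), 0 were higher and 0 lower in spleen without Vps34 (1 and 2), 9 were lower in lung without Vps34 (16), 1 was lower in lung among controls (2), and 10 were higher and 1 lower in lung among Vps34-deficient cells (22 and 10). Over all tested peaks the block also lowered the share called, from 6.51% to 5.1% lower in lung on average, from 0.441% to 0.0257% higher and 1.02% to 0.26% lower in spleen without Vps34, from 3.74% to 2.38% lower in lung without Vps34, from 3.53% to 2.37% lower in lung among controls, and from 12.5% to 5.19% higher and 4.72% to 1.76% lower in lung among Vps34-deficient cells. Same-numbered libraries did not deviate together (r from -0.0978 to 0.0633), so the numbers do not pair the samples. DESeq2 called 4 higher without Vps34 on average (2 in edgeR), 1 higher in lung without Vps34 (0) and 1 in the interaction (0). Over all 97109 tested peaks DESeq2 called 4408 higher without Vps34 on average (3416 in edgeR), 1489 higher in lung without Vps34 (1188) and 24 in the interaction (0). Library size scaling, median-of-ratios scaling, halved counts and the chromosome Y covariate each called 1 higher in lung without Vps34. Over all tested peaks they called 1330, 1411, 1464 and 1336, against 1188 in the main fit. Among controls, library size scaling, median-of-ratios scaling, no filter and halved counts called 5 lower in lung and the covariate 4 (2). Over all tested peaks these 5 settings called 4568, 4073, 4691, 4624 and 3563 lower, against 3428 in the main fit. Halved counts called 0 higher in spleen without Vps34 (1), and 480 of all 90976 peaks tested there (428 of 97109 in the main fit). Spleen alone gave 4 lower without Vps34 (2) and lung alone 7 (16), where the shares of all tested peaks were 1.9% and 1.85% (1.02% and 3.74%). Among peaks over 220 bp, chosen after seeing the data, 11 were higher in lung on average, 0 higher without Vps34 on average, 0 higher in spleen without Vps34, 10 higher and 1 lower in lung among controls, and 6 higher in lung among Vps34-deficient cells. In this order these were 4.95%, 0.0%, 0.0%, 4.5%, 0.45% and 2.7% of the 222 such Rab peaks. The shares of all tested peaks over 220 bp were 6.35%, 1.91%, 0.227%, 4.94%, 4.39% and 3.51%.

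Leaving out 1 library gave 25 to 35 higher and 7 to 15 lower in lung on average, 0 to 6 higher and 7 to 16 lower without Vps34 on average, 0 to 2 higher and 0 to 3 lower without Vps34 in spleen, 0 to 5 higher and 2 to 20 lower without Vps34 in lung, 6 to 24 higher and 1 to 11 lower in lung among controls, 8 to 29 higher and 2 to 14 lower in lung among Vps34-deficient cells, and 0 to 1 in the interaction. The shares of all tested peaks called also moved, to 15.7 to 18.3% higher and 5.51 to 8.22% lower in lung on average, 1.47 to 5.93% higher and 2.93 to 4.33% lower without Vps34 on average, 0.0175 to 1.24% higher and 0.338 to 1.59% lower without Vps34 in spleen, 0.483 to 5.18% higher and 1.08 to 4.06% lower without Vps34 in lung, 3.21 to 11.4% higher and 1.66 to 4.61% lower in lung among controls, and 7.2 to 14.4% higher and 2.18 to 5.92% lower in lung among Vps34-deficient cells. Where this left a group with 1 library, that library was assumed to vary like the other groups. Of 1064 values of named peaks under alternatives, 977 kept their side of the threshold, 86 lost it, 1 gained it (Rab7 between tissues) and 0 reversed. These values include results that were not called in the main fit. Of the 62 named results 42 were called, and 20 of these kept their call under every alternative. Groups of 2 libraries limit what can be seen within a tissue. The causes of these changes were not tested.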
